A study of Mus musculus with 8 samples.

Results

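The genes described here encode the subunits of oxidative phosphorylation, taken from a count table of mouse first molar enamel organs. They were chosen by name alone: protein-coding genes of the table called Nduf (followed by a, b, c, s or v and a number), Sdha to Sdhd, Uqcr, Cox4 to Cox8, Atp5, or, for the mitochondrial genome, mt-Nd, mt-Co, mt-Cytb and mt-Atp. This gave 98 of the 22046 protein-coding genes and of the 54532 gene identifiers in all, of which 85 lie in the nucleus and 13 in the mitochondrial genome. Ndufa4 and its relative Ndufa4l2 carry a complex I name but were placed with complex IV, where the Ndufa4 protein is known to sit. The nuclear genes were thus 35 for complex I, 4 for complex II, 8 for complex III, 20 for complex IV and 18 for complex V, and the mitochondrial genes were 7, 0, 1, 3 and 2.

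The libraries came from enamel organs of untreated wt C57BL/6 pups taken at P5 (postnatal day 5, secretory stage) or P12 (postnatal day 12, maturation stage). Each library was a pool of 5 pups, with 4 pools at each age, numbered 1, 3, 4 and 5 at P5 and 1 to 4 at P12. The molars were microdissected from the mandible, the soft tissue of the pulp chamber was taken out, and polyadenylated RNA was captured. The question was how expression differed between secretory and maturation stage, and both ages carry the same genotype. Age, stage and the makeup of the dissected tissue changed together and cannot be told apart, and in such bulk samples fewer cells of a type cannot be told from less RNA per cell.

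Oxidative phosphorylation passes electrons from NADH through complex I, or from succinate through complex II, to ubiquinone, then through complex III and cytochrome c to complex IV, which reduces oxygen. Complexes I, III and IV pump protons across the inner mitochondrial membrane, and complex V, the ATP synthase, uses the gradient to make ATP. All complexes but complex II combine subunits made from the mitochondrial genome with subunits encoded in the nucleus, and several nuclear subunits of complex IV exist as paired isoforms, one broadly expressed and one typical of particular tissues. Maturation ameloblasts, which move ions across the epithelium, are known to be rich in mitochondria.

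Total counts ran from 16574548 to 20262601 in the P5 libraries and from 17588152 to 22013456 in the P12 libraries. Below, a normalized count is a count divided by the effective library size (TMM) and scaled to the mean library, and a gene was called when edgeR's quasi-likelihood test gave an adjusted p (Benjamini-Hochberg over 16440 genes) under 0.05. The labelled tissue was present: the 4 secretory ameloblast markers were all detected and lower at P12, and 5 of 6 maturation markers were higher. Markers of other tissues moved as well, where 28.8% of all genes tested were called higher and 28.4% lower. All 8 of oral epithelium, all 5 of endothelium, all 6 tested of osteoclasts, all 6 of proliferation, 5 of 6 of macrophages and leukocytes, 6 of 8 of pericytes and smooth muscle and 3 of 8 of mesenchyme and bone were higher at P12, while 2 of the mesenchyme and bone list and 2 of the 5 erythroid markers were lower. The mesenchyme, odontoblast and bone markers summed to between 909426 and 1225214 normalized counts per library, although the labels name epithelially derived cells, and the part of any of these cells in the results below was not tested. P12 replicate 4 stood apart from the other P12 pools, with a chi-square per degree of freedom of 35.01 to 84.9 against each, where the other 3 differed by 9.54 to 21.3 among themselves. Its summed oral epithelium markers were at 13023 normalized counts (44360 to 66143 in the other P12 pools) and its secretory ameloblast markers took 3.52% of its counts (1.47% to 2.59%). It was also the highest P12 library for 87 of the 94 subunit genes tested (92.6%, against 33.4% of all genes tested), so results are given with and without it. P5 replicate 5 also stood apart, by 18.6 to 20.5 from the other P5 pools, which differed by 5.04 to 6.21 among themselves. Its maturation ameloblast markers summed to 20402 normalized counts (44914 to 52813 in the other P5 pools), and it was the lowest P5 library for 52 of the 94 subunit genes (55.3%, against 30.0% of all genes tested). Without it the log2 fold changes of the 4 genes that rose most, described below, were between 1.75 and 3.86 and all stayed called.

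Subunit genes were higher at P12 more often than lower, by small amounts. Of the 94 that passed the filter on low counts, 39 were higher and 6 lower at P12, and 49 were not called. Over all genes tested, 57.2% were called, 28.8% higher and 28.4% lower. The median log2 fold change of the subunit genes was 0.21, against 0.01 for all genes tested, and 35 of the 39 rises were under 1 on the log2 scale. In 24 genes every P12 library lay above every P5 library (26.0% of all genes tested), in 5 every P12 library lay below (26.6%), and in 65 the ages overlapped. The share with every P12 library above was thus close to that of all genes, and the share with every P12 library below was under it. The share called higher was 41.5% with all libraries, but it depended on single pools. Without P12 replicate 4 it was 26.6% (all genes 29.2%), and without P12 replicate 3 it was 25.5% (26.1%). Without P5 replicate 3, 4 or 5 it was 23.4%, 27.7% and 24.5% (26.0%, 26.4% and 27.0%). The excess of rises over all genes was therefore lost, or nearly so, when any of these 5 libraries was left out. It stayed without P5 replicate 1, at 35.1% (all genes 27.0%). Without P12 replicate 1 or 2 the share higher was 56.4% and 43.6% (all genes 26.7% and 25.9%). The share called lower was between 5.32% and 9.57% in every such fit, where that of all genes was between 26.0% and 30.1%.

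The 2 genomes were measured apart. Of the 81 nuclear genes tested, 35 were higher, 6 lower and 40 not called, with a median log2 fold change of 0.18. Of the 13 mitochondrial genes, 4 were higher and 9 were not called, with a median of 0.34, and the 30.8% called higher was close to the 28.8% of all genes. Without P12 replicate 4 the nuclear counts became 21 higher (25.9%, all genes 29.2%) and 9 lower with a median of 0.11. The mitochondrial count stayed at 4 higher with a median of 0.19. The nuclear rises also dropped to 19, 22 and 20 without P5 replicate 3, 4 or 5 (23.5%, 27.2% and 24.7%, all genes 26.0%, 26.4% and 27.0%). Without P12 replicate 3 there were 22 (27.2%, all genes 26.1%). The nuclear rises numbered 44 and 38 without P12 replicate 1 or 2 (54.3% and 46.9%, all genes 26.7% and 25.9%). Without P5 replicate 1 there were 30 (37.0%, all genes 27.0%). The mitochondrial rises were 9 without P12 replicate 1 (69.2%, all genes 26.7%) and 2 without P12 replicate 3 (15.4%, all genes 26.1%). Scaling by total count, which moved the median of all genes to 0.38, gave 74 nuclear genes higher and 2 lower and 10 mitochondrial genes higher. It also moved the calls over all genes from 4735 higher and 4676 lower to 8885 and 2330. Relative to the median of all genes, the nuclear median was 0.17 under both scalings, and the mitochondrial median was 0.33 under both.

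**Figure D1:**
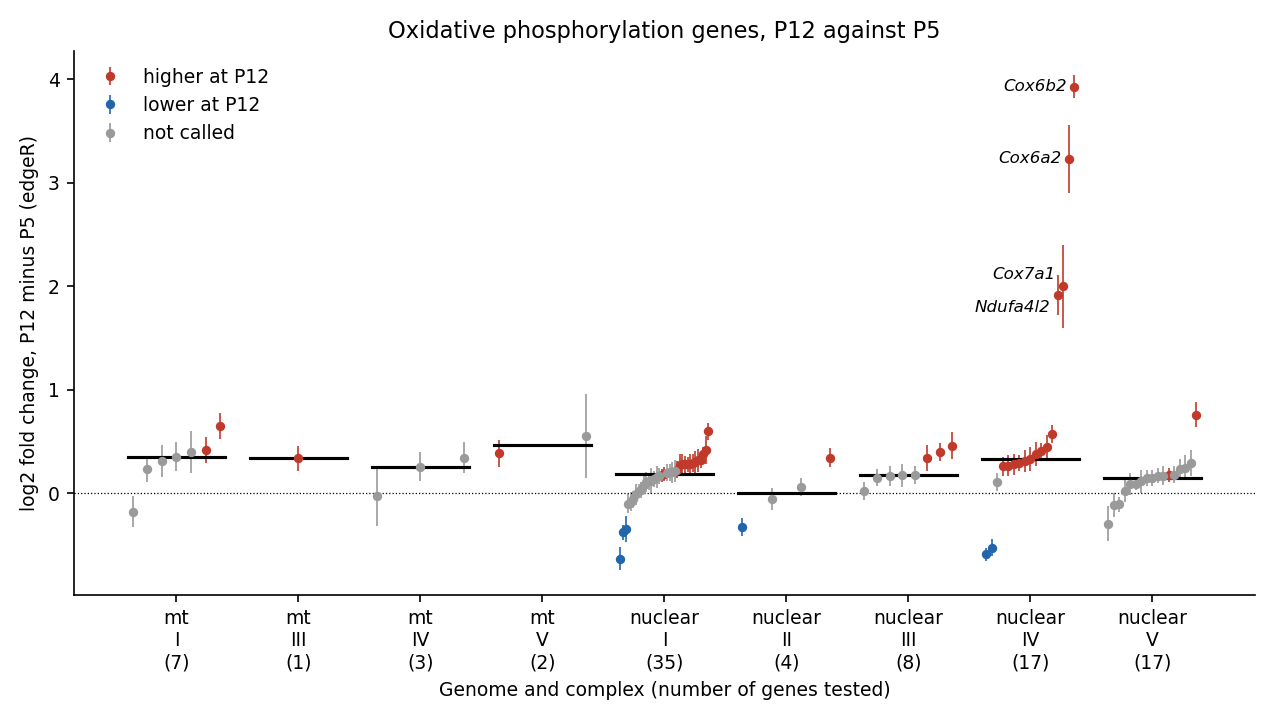
Log2 fold change (P12 minus P5, edgeR) of each of the 94 subunit genes tested, by genome and complex, with its standard error as a bar and the median of each group as a black line. Red genes were higher, blue genes lower and grey genes not called at an adjusted p under 0.05; most lie below 1, and the 4 labelled genes of nuclear complex IV lie between 1.91 and 3.93.

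The share of all counts taken by subunit genes was larger at P12. The 13 mitochondrial genes took 1.59%, 1.55%, 1.57% and 1.42% of the counts in P5 replicates 1, 3, 4 and 5, and 2.06%, 2.34%, 2.54% and 2.90% in P12 replicates 1 to 4. The 85 nuclear genes took 0.699%, 0.670%, 0.668% and 0.648% at P5 and 0.896%, 0.908%, 0.995% and 1.10% at P12. Neither share overlapped between the ages, and the ratio of the P12 mean to the P5 mean was 1.61 for the mitochondrial and 1.45 for the nuclear genes. These shares depend on what the rest of the library holds: the 4 secretory ameloblast markers alone took 23.2% to 25.5% of the counts at P5 and 1.47% to 3.52% at P12. With the 20 most abundant other genes taken out of each total, the ratios were 1.26 and 1.13, and the nuclear shares overlapped, at 0.971% to 1.06% at P5 and 1.06% to 1.32% at P12. Mitochondrial counts exceeded nuclear ones 2.19 to 2.35 times at P5 and 2.30 to 2.65 times at P12.

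Within each age the subunit genes shifted together from library to library. Relative to the P5 mean, the median over the 94 genes was 0.07, -0.01, 0.01 and -0.08 on the log2 scale in P5 replicates 1, 3, 4 and 5, and 0.03, 0.12, 0.25 and 0.44 in P12 replicates 1 to 4. The median over all genes tested stayed between -0.00 and 0.01 in every library. P12 replicate 1 was the lowest P12 library for 63 of the 94 genes, and P5 replicate 1 was the highest P5 library for 53. The spread between the P12 pools was therefore wider than that between the P5 pools, and P12 replicate 1 lay within the P5 range.

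**Figure D2:**
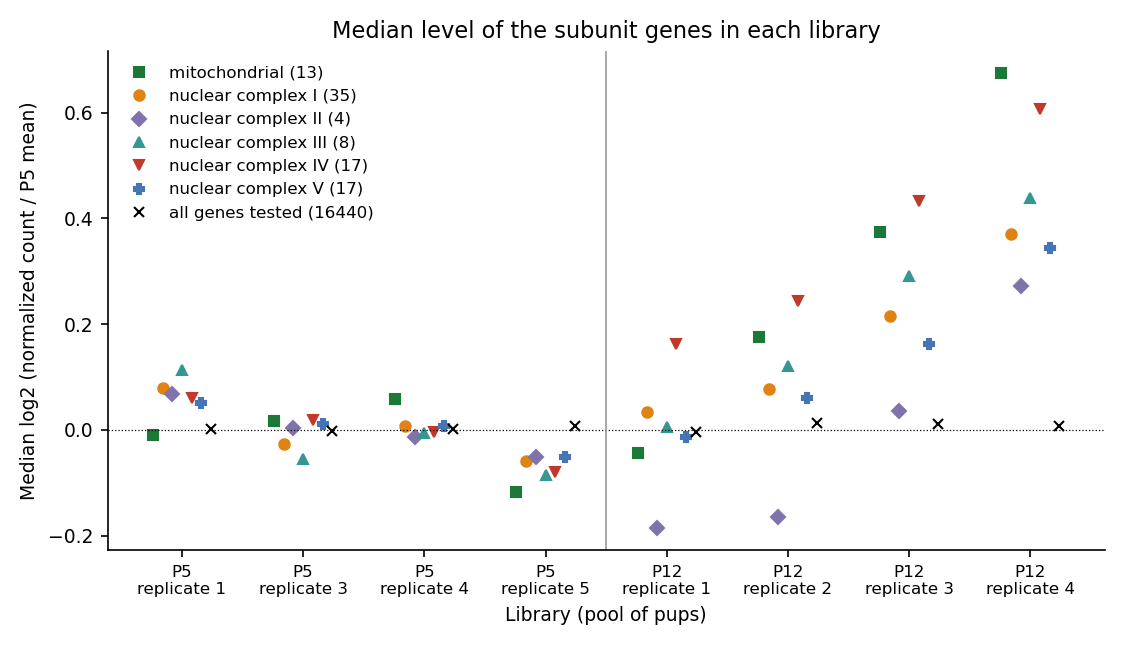
Median over genes of the log2 ratio of the normalized count to the P5 mean, in each of the 8 libraries, for the mitochondrial genes, the nuclear genes of each complex and all genes tested (number of genes in brackets). All genes tested stay near 0 in every library, while most subunit groups lie near 0 at P5 and in P12 replicate 1 and highest in P12 replicate 4.

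The mitochondrial genome encodes 7 subunits of complex I, and 2 of them rose. Mt-Nd2, a membrane subunit, was at 20620.3, 21293, 21245 and 20821 normalized counts in the P5 pools and at 25808, 30618, 33563 and 41742 in the P12 pools, so that all P12 libraries lay above all P5 libraries. Its log2 fold change was 0.65 (SE 0.13, adjusted p = 0.0012 by edgeR's quasi-likelihood test). Mt-Nd4, also of the membrane arm, had a mean of 23784 ± 1743 (SD, n = 4) at P5 and 31753 ± 5812 (n = 4) at P12, with a difference of 0.42 on the log2 scale (edgeR adjusted p = 0.014), with 1 P12 library inside the P5 range. The log2 fold changes of mt-Nd1, mt-Nd4l, mt-Nd5 and mt-Nd6 were 0.23, 0.39, 0.31 and 0.35, and that of mt-Nd3 was -0.18. None of these 5 passed edgeR's test, and mt-Nd6, the one subunit gene on the other strand, came closest with an adjusted p of 0.0503.

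Complex III takes 1 subunit from the mitochondrial genome, cytochrome b. Mt-Cytb had 66899 ± 4686 normalized counts at P5 and 84387 ± 12294 at P12 (SD, n = 4 each), a log2 fold change of 0.34 (edgeR adjusted p = 0.032). Of the 3 catalytic and core subunits of complex IV made in the mitochondrion, mt-Co1 went from 126079.7 ± 8702 to 150533 ± 27169.6 and mt-Co2 from 407 ± 69.0 to 517 ± 99.2, with log2 fold changes of 0.26 and 0.34 that did not pass the test. Mt-Co3 was at 256, 817, 357 and 364 at P5 and at 360.0, 443, 438 and 529 at P12. P5 replicate 3 alone exceeded all other libraries for mt-Co3, and the log2 fold change of -0.03 became 0.43 (edgeR adjusted p = 0.042) without it.

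For complex V, mt-Atp6, the proton channel subunit, rose by 0.38 on the log2 scale (edgeR adjusted p = 0.025), from 385 ± 53.9 to 503 ± 77.1 normalized counts. Mt-Atp8 was at 18.0, 14.5, 15.8 and 12.7 at P5 and at 13.9, 10.97, 27.8 and 38.2 at P12, with a log2 fold change of 0.55 (SE 0.41) that did not pass the test. Levels of mitochondrial genes against each other are uncertain. Copies of mitochondrial sequence on chromosome 1, among them Gm28661, Gm28437 and Gm10925, share at least 98.0% of the 50-base stretches of mt-Co2, mt-Co3, mt-Atp6, mt-Nd3 and mt-Nd4l, and further copies share 62.2% of mt-Nd4 and 51.1% of mt-Co1. How reads that match both were counted is not given in the sources used here. The 5 genes with nearly complete copies had between 309 and 596 normalized counts per kilobase at P5, where mt-Co1 had 81605. Of the genes with no shared stretch, mt-Cytb had 58478, while mt-Atp8 had 74.8, under all 5. Mt-Atp8 (MT:7766-7969, GRCm38) also overlaps mt-Atp6 (MT:7927-8607), and mt-Nd4l (MT:9877-10173) overlaps mt-Nd4 (MT:10167-11544).

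The ribosomal RNAs of the mitochondrion are not subunit genes and are usually removed by capture of polyadenylated RNA. Their summed normalized count was 9158 to 10998 at P5 and 8973, 10246, 13751 and 35963 at P12. P12 replicate 4 was thus far above the other libraries in mitochondrial ribosomal RNA as well as highest in all 13 mitochondrial subunit genes among the P12 pools. The part of this in the mitochondrial results was not tested. Without that library the log2 fold changes of mt-Nd2, mt-Nd4, mt-Cytb and mt-Atp6 were 0.51, 0.29, 0.24 and 0.31, and all 4 stayed under an adjusted p of 0.05 in edgeR's test. Other libraries ended calls: mt-Cytb was not called without P5 replicate 3, 4 or 5 or P12 replicate 3, and mt-Atp6 without P5 replicate 1 or 3 or P12 replicate 2 or 3 (edgeR adjusted p up to 0.077 for both).

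Complex I, the NADH dehydrogenase, had 15 of its 35 nuclear genes higher and 3 lower, with a median log2 fold change of 0.19. Of these genes 42.9% were thus higher, against 28.8% of all genes. Without P12 replicate 4 the counts were 7 and 3, and the count of rises was also under the main one by more than 1.5 times without P5 replicate 3, 4 or 5 (6, 8 and 7) or P12 replicate 3 (8), and in each of these 5 fits the share was smaller than that of all genes. Without P12 replicate 1 or 2 there were 18 and 15 rises (51.4% and 42.9%, all genes 26.7% and 25.9%). Without P5 replicate 1 there were 12 (34.3%, all genes 27.0%). The 3 largest rises were in accessory subunits. Ndufb3, of the membrane arm, was at 474, 478, 459 and 499 normalized counts at P5 and at 633, 691, 758 and 812 at P12, with no overlap and a log2 fold change of 0.60 (SE 0.08, edgeR adjusted p = 1.0e-04). Ndufc1 rose by 0.42 and Ndufv3, of the NADH-binding module, by 0.38 on the log2 scale (edgeR adjusted p = 0.021 and 6.8e-04), and Ndufc1 lost its call without P5 replicate 3, 4 or 5 (edgeR adjusted p up to 0.068).

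The 3 falls in complex I were in accessory subunits too. Ndufa1, of the membrane arm, was at 1946, 1573, 1488 and 1659 normalized counts at P5 and at 991, 931, 1087 and 1293 at P12. All P12 libraries lay below all P5 libraries, and the log2 fold change was -0.63 (SE 0.11, edgeR adjusted p = 5.0e-04). Ndufa2 was lower by -0.38 and Ndufb2 by -0.35 on the log2 scale (edgeR adjusted p = 0.0011 and 0.039). Under total count scaling Ndufa2 was at -0.0073 and lost its call (edgeR adjusted p = 0.93). Ndufb2 had overlapping ages, turned to 0.027 under that scaling and lost its call when any of 6 libraries was left out. Conserved core subunits encoded in the nucleus, named after their values were seen, gave smaller differences: Ndufv1 and Ndufs8 were higher by 0.29 and 0.23 (calls lost when 1 library, P5 replicate 3, or any of 3 libraries was left out, respectively), while Ndufs1, Ndufs3, Ndufs7 and Ndufv2 had log2 fold changes of 0.12, -0.10, -0.08 and -0.06 and were not called.

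Complex II, succinate dehydrogenase, has no mitochondrially encoded subunit, and its 4 genes did not move together. Sdhb, the iron-sulfur subunit, was at 1748, 1655, 1620.1 and 1692 normalized counts at P5 and at 1244, 1223, 1264 and 1619 at P12. P12 replicate 4 lay just under the P5 range and the other 3 lay well below it. The log2 fold change was -0.33 (SE 0.09, edgeR adjusted p = 0.0080), or -0.44 without that library, and turned to 0.039 under total count scaling. Sdhd, a membrane anchor, rose from 1319 ± 62.7 to 1671 ± 236 (SD, n = 4 each), a log2 fold change of 0.34 (edgeR adjusted p = 0.0082), with no overlap. Sdha, the flavoprotein subunit, and Sdhc, the other anchor, had log2 fold changes of -0.06 and 0.06 and were not called. Without P12 replicate 4, Sdha was called lower at -0.18 (edgeR adjusted p = 0.042).

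Complex III, which hands electrons from ubiquinol to cytochrome c, had 3 of 8 nuclear genes higher (37.5%, against 28.8% of all genes). The others were not called, and the median log2 fold change was 0.17. There were 2 rises without P12 replicate 3 or 4 or P5 replicate 3 or 5, each time a smaller share than that of all genes. The rises numbered 5 without P12 replicate 1, 4 without P12 replicate 2 and 3 without P5 replicate 1 or 4. Uqcrb, the ubiquinone-binding subunit, was at 1256, 1035, 1045 and 1040.5 normalized counts at P5 and 1265, 1332, 1465 and 1957 at P12. The lowest P12 library exceeded the highest P5 library only narrowly, and the log2 fold change was 0.46 (SE 0.13, edgeR adjusted p = 0.0097). For Uqcrb, 25.5% of the 50-base stretches are shared with other genes. Uqcr10 rose by 0.39 and Uqcrfs1, the Rieske iron-sulfur protein, by 0.34 (edgeR adjusted p = 0.0025 and 0.036), the latter losing its call without any of 4 libraries, and the core proteins Uqcrc1 and Uqcrc2 both had a log2 fold change of 0.17 and were not called.

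Complex V, the ATP synthase, had some of the highest levels among the nuclear genes, but few of its genes were called. Atp5b and Atp5a1, the catalytic core pair, had 3643 and 3752 normalized counts per kilobase at P5 and 4449 and 4064 at P12, where Cox8a had 5868 and 7178. Their log2 fold changes of 0.29 and 0.11 did not pass the test. Of 17 genes tested, 2 were higher (11.8%, against 28.8% of all genes) and 15 not called, with a median log2 fold change of 0.15. The rises numbered 6 without P12 replicate 1 (35.3%, all genes 26.7%) and 4 without P12 replicate 2 (23.5%, all genes 25.9%). There was 1 rise (5.88%) without P5 replicate 3, 4 or 5 or P12 replicate 3 or 4.

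Atp5k, which encodes subunit e of the membrane part, was at 453, 385, 340.1 and 372 normalized counts at P5 and at 691, 519, 742 and 665 at P12, with no overlap. Its log2 fold change was 0.76 (SE 0.12, edgeR adjusted p = 2.4e-04), the largest of complex V. Atp5e, the epsilon subunit of the rotor, rose by 0.17 (edgeR adjusted p = 0.045) with overlapping ages, and lost its call when any of 6 libraries was left out. The genes of the membrane ring, Atp5g1, Atp5g2 and Atp5g3, encode the same mature protein and had log2 fold changes of 0.23, 0.09 and 0.25, none called. Atp5g2 shares 38.3% of its 50-base stretches with pseudogenes. Without P12 replicate 4, Atp5k remained the only rise in complex V, and Atp5j2 and Atp5o were called lower at -0.17 and -0.24 (edgeR adjusted p = 0.037 and 0.027).

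Complex IV, cytochrome c oxidase, held the subunit genes that rose most. Of its 17 nuclear genes tested, 14 were higher, 2 lower and 1 not called, where 28.8% of all genes tested were higher, and the median log2 fold change was 0.33. The 4 subunit genes of any complex that rose by 1 or more (11.3% of all genes tested did so) were Cox6b2, Cox6a2, Cox7a1 and Ndufa4l2. All 4 were counted here with complex IV, Ndufa4l2 as a relative of Ndufa4, and each is the tissue-restricted member of an isoform pair. Without P12 replicate 4 there were 10 rises (58.8%, all genes 29.2%) and 2 falls with a median of 0.23. Without P12 replicate 3 there were also 10 rises (58.8%, all genes 26.1%). Without P5 replicate 3, 4 or 5 there were 9 rises each (52.9%, all genes 26.0%, 26.4% and 27.0%). The share higher in complex IV thus stayed above that of all genes in each of these fits.

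Cox6b2 changed most. It is known as the isoform of subunit VIb typical of testis, and lies on the reverse strand at chr7:4751792-4753094 (GRCm38). Its level was 83.6, 81.6, 89.6 and 72.0 normalized counts at P5 and 1155, 1104, 1339.9 and 1372 at P12. The pools of each age lay close together and the ages were far apart, with a ratio of means of 15.2, a log2 fold change of 3.93 (SE 0.11) and an edgeR adjusted p of 5.5e-10. Only 140 of the 16440 genes tested (0.852%) had a larger log2 fold change. Its value moved little without P12 replicate 4, to 3.88.

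The broadly expressed partner, Cox6b1, was at 1860.2, 1678, 1733 and 1728 normalized counts at P5 and 2079, 2150.0, 2366 and 2663 at P12. It was therefore the more abundant isoform in every library, and rose by 0.40 on the log2 scale (SE 0.08, edgeR adjusted p = 0.0013). Per kilobase, Cox6b1 had 2472 and 3269 and Cox6b2 had 73.7 and 1122 normalized counts at P5 and P12. Cox6b2 made up 4.299%, 4.64%, 4.92% and 3.998% of the counts of the pair in the P5 pools (mean 4.46%) and 35.7%, 33.9%, 36.2% and 34.0% in the P12 pools (34.95% ± 1.15, SD, n = 4).

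The sequence just upstream of both genes is shown because the pair moved so unequally. Promoters were available in RefSeq (GRCm38.p6) for 68 of the 84 nuclear gene symbols, and 3 short motifs known from promoters of respiratory genes were searched on both strands of the 300-base windows. The NRF-1 core GCGCATGC was in 14.7% of these windows, against 3.05% of 27025 genes with a promoter and 5.38% of the 11836 of them that were tested here. The ETS core CCGGAAG, bound by GABP, was in 23.5% against 9.93% and 17.9%, and the YY1 core AAGATGGC in 14.7% against 3.19% and 4.79%. At least 1 motif was in 44.1% of the windows, against 14.9% and 25.5%. Below are 120 bases upstream of the gene, 5′ to 3′ on the gene's own strand, with any match in capitals. Cox6b2 (chr7:4753095-4753214, reverse strand) and Cox6b1 (chr7:30626152-30626271, reverse strand) hold none of the motifs in this stretch, though the whole 300-base window of Cox6b1 holds the ETS core and that of Cox6b2 holds none of the 3. Uqcrh (chr4:116075072-116075191, reverse strand), chosen after its values were seen as an example of a match, holds the ETS core on the opposite strand, starting 10 bases before the RefSeq start, and its gene was not called.
Cox6b2: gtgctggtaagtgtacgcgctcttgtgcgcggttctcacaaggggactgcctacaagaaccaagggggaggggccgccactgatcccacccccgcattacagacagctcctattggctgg
Cox6b1: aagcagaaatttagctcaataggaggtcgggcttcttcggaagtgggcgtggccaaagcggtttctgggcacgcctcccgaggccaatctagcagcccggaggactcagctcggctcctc
Uqcrh: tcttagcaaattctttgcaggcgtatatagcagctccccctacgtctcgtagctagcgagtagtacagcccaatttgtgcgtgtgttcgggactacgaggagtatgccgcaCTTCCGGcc
A match is a description of letters, and no binding was measured.

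Ndufa4l2, known as a gene induced at low oxygen and as a marker of pericytes, was at 181, 188, 209.6 and 169 normalized counts at P5 and 686, 878, 816 and 431 at P12. P12 replicate 4 was the lowest of its age and still above every P5 library. The log2 fold change was 1.91 (SE 0.19, edgeR adjusted p = 8.3e-06), and 2.08 without that library. Ndufa4, the other gene of the pair, moved the other way, from 2286, 2149.9, 2122 and 1932 to 1341, 1425, 1427 and 1702. The ages did not overlap and the log2 fold change was -0.53 (SE 0.08, edgeR adjusted p = 2.3e-04). Under total count scaling Ndufa4 was at -0.157 and lost its call (edgeR adjusted p = 0.060). Ndufa4l2 made up 8.11% ± 0.673 of the counts of the pair at P5 and 32.1% ± 8.15 at P12 (SD, n = 4 each).

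Beside this rise, 6 of 8 markers of pericytes and smooth muscle were higher at P12, where 28.8% of all genes tested were. The summed level of the list was 3617 to 4271 normalized counts at P5 and 10063 to 11603 at P12. Rgs5, a defining pericyte marker, went from 2033 to 5648. P12 replicate 4, lowest for Ndufa4l2, had the highest marker sum. The part of these cells in the Ndufa4l2 result was not tested.

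Cox6a2 and Cox7a1 are known as the isoforms of heart and skeletal muscle, and both were low here. Cox6a2 was at 14.1, 24.6, 25.05 and 9.53 normalized counts at P5 and 155, 127, 147 and 259 at P12. The ages were far apart, with a log2 fold change of 3.23 (SE 0.33, edgeR adjusted p = 8.0e-06). Cox7a1 was at 19.3, 22.4, 26.4 and 9.53 in the P5 libraries and 45.5, 49.8, 87.1 and 128 in those of P12. All P12 pools were higher but spread widely, and the log2 fold change was 1.997 (SE 0.40, edgeR adjusted p = 0.0013). Their partners Cox6a1 and Cox7a2 had 3992 ± 155 and 1124 ± 118 at P5, and rose by 0.27 and 0.38 on the log2 scale (edgeR adjusted p = 0.042 and 0.014), the former losing its call when any of 6 libraries was left out (edgeR adjusted p up to 0.103). Cox6a2 was thus 0.455% ± 0.189 of its pair at P5 and 3.40% ± 0.634 at P12, and Cox7a1 1.66% ± 0.520 and 4.83% ± 1.54 (SD, n = 4 each).

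Of 12 skeletal muscle markers tested, 3 were higher and 5 lower at P12, where 28.8% of all genes tested were higher and 28.4% lower. The summed level of the list was 967 to 1632 normalized counts at P5 and 941 to 1765 at P12, with Tnnc2 at 0 in all libraries. The rises were in the adult myosin genes Myh1, Myh2 and Myh4 (log2 fold changes of 1.93, 1.20 and 1.91) and the falls included Acta1, Mylpf and Myh8 (-1.34, -1.23 and -2.32). Among the P12 pools the summed level was highest in P12 replicate 4, at 1765 against 941 to 1245 in the others. Cox6a2 and Cox7a1 were also highest there, but that library was the highest of the P12 pools for 87 of the 94 subunit genes. The brown adipocyte markers summed to 6.43 to 19.8 normalized counts at P5 and to 14.1 to 21.995 at P12. The part of muscle RNA in the rises of Cox6a2 and Cox7a1 was not tested, and both kept their calls without P12 replicate 4 (2.96 and 1.65).

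**Figure D3:**
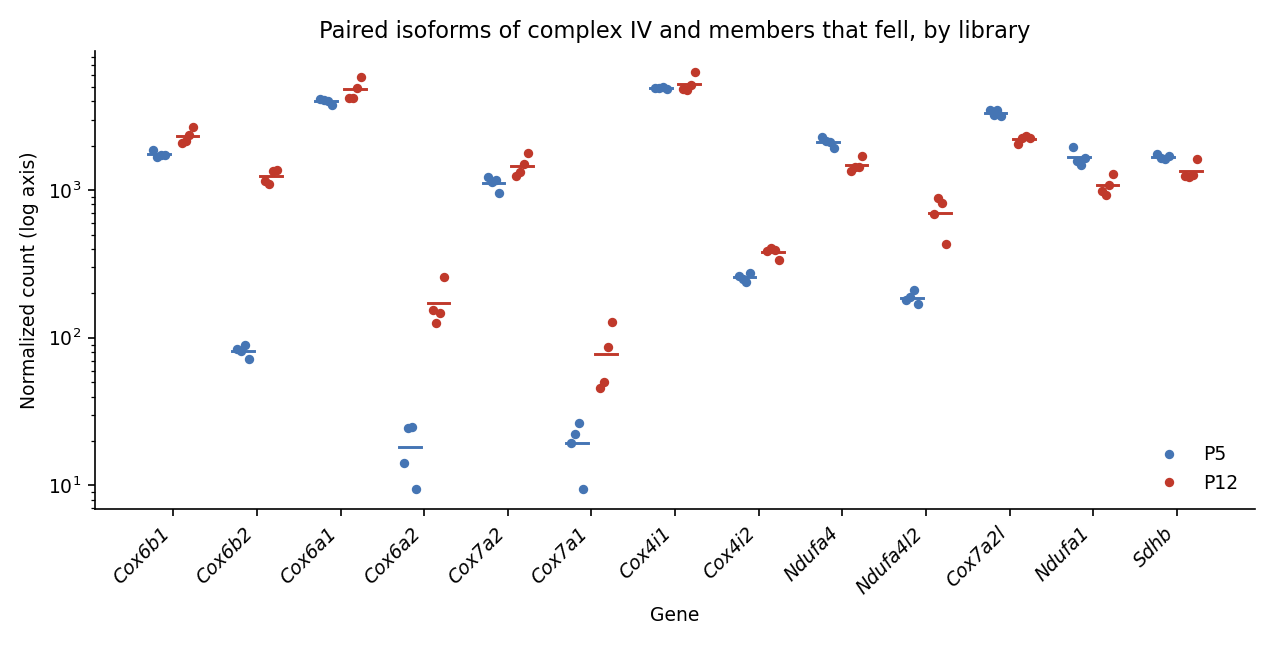
Normalized counts on a log axis of paired isoforms of complex IV, and of 3 other genes that fell (Cox7a2l, Ndufa1 and Sdhb, the last turning to 0.039 under total count scaling), in the 4 libraries of P5 (blue) and of P12 (red), with the mean as a line. Cox6b2, Cox6a2, Cox7a1 and Ndufa4l2 rose by 1.91 to 3.93 on the log2 scale while their partners Cox6b1, Cox6a1, Cox7a2 and Ndufa4 moved by -0.53 to 0.40.

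Cox4i2, the isoform of subunit IV known from lung and from oxygen-sensing vascular cells, was at 262, 250.4, 237 and 274 normalized counts at P5 and 384, 406, 396 and 335 at P12, with no overlap. It rose by 0.57 on the log2 scale (SE 0.09, edgeR adjusted p = 2.5e-04). The common isoform Cox4i1 had a log2 fold change of 0.11 and was the nuclear complex IV gene that was not called. Cox8a and Cox7b rose by 0.29 and 0.45 (edgeR adjusted p = 0.0084 and 0.0053). Their tissue-restricted relatives were nearly absent: Cox8b had 3 to 12 reads per library, and Cox7b2 and Cox8c had 0 in all 8 libraries, where 3 counts, the floor set by counting error, correspond to 0.136 to 0.181 CPM. These 3 genes and a second Atp5o identifier with 0 counts, which shares 89.8% of its 50-base stretches with other genes, are the 4 members that did not pass the filter.

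The second fall in complex IV was in Cox7a2l, which is known to join complexes III and IV into supercomplexes. It was at 3461, 3205, 3504 and 3190.2 normalized counts at P5 and 2062, 2259, 2309 and 2238 at P12. Pools within an age lay close together and the ages did not overlap, with a log2 fold change of -0.59 (SE 0.06, edgeR adjusted p = 1.2e-05). Cox7a2l shares 13.8% of its 50-base stretches with a pseudogene, Gm6969, that had 7 to 16 reads per library.

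Ratios within a library do not depend on scaling, so 7 isoform pairs were compared by two-sided exact permutation tests over the 4 and 4 libraries, for which the smallest p is 0.0286. The log2 ratio differed between ages by 3.51 for Cox6b2 to Cox6b1, 2.93 for Cox6a2 to Cox6a1, 2.39 for Ndufa4l2 to Ndufa4 and 1.51 for Cox7a1 to Cox7a2. Each of these gave the smallest p (exact permutation p = 0.0286), with every P12 library above every P5 library. Adjusted over the 7 pairs these exact tests gave 0.050, which is at the threshold and not under it. The ratio of Cox4i2 to Cox4i1 differed by 0.47 with overlapping ages (exact permutation p = 0.0857, adjusted 0.12). The ring genes of complex V changed least, by -0.02 for Atp5g1 to Atp5g3 and -0.14 for Atp5g2 to Atp5g3 (exact permutation p = 0.886 and 0.371). Cox8b to Cox8a was not compared because Cox8b did not pass the filter.

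**Figure D4:**
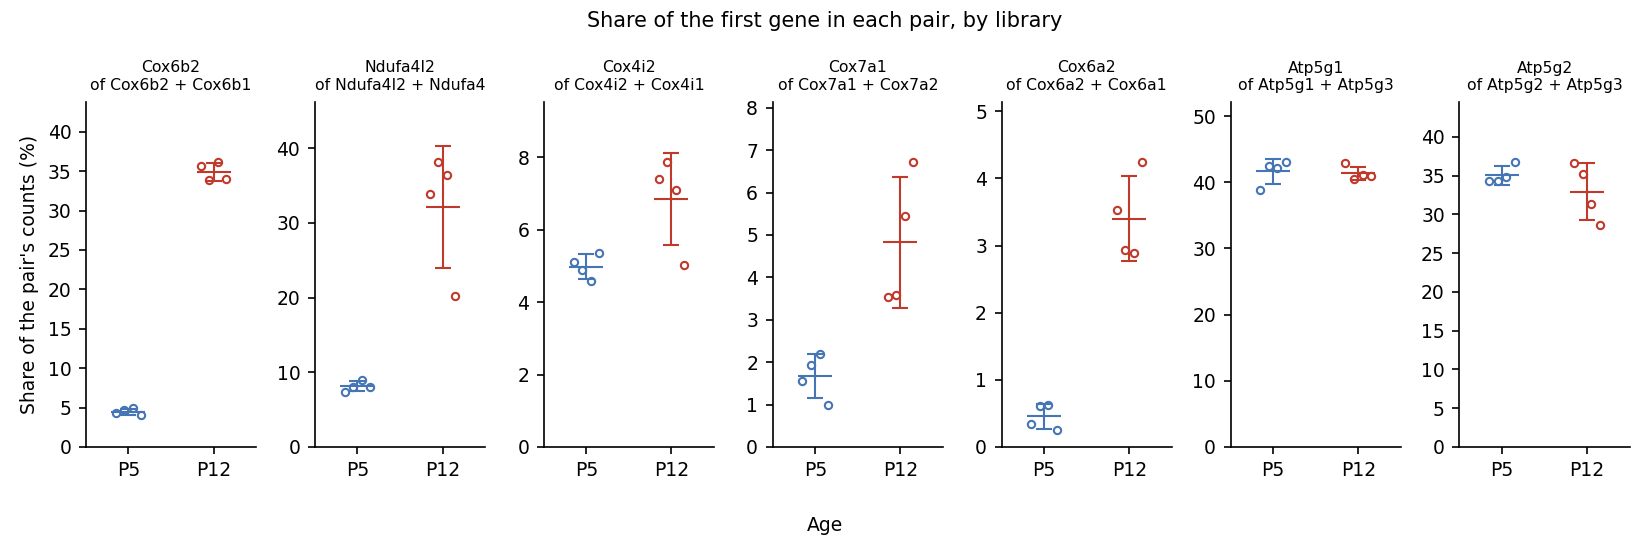
Share (%) of the first-named gene in the summed counts of each isoform pair, with each library as an open circle and the mean and SD of 4 libraries as bars, at P5 (blue) and P12 (red), on axes that start at 0 and differ between panels. Cox6b2 goes from 4.46% to 34.95% of its pair and Ndufa4l2 from 8.11% to 32.1%, while the Atp5g pairs overlap.

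Proteins that build the complexes moved in both directions, where 28.8% of all genes tested were higher and 28.4% lower. The share higher was 33.3% for the factors of complex I and for the 6 of complex III, near that of all genes. For the factors of complex IV it was smaller than that of all genes. The lists of complexes II and V held 4 genes each, too few to compare. Of 15 complex I assembly factors tested, 5 were higher and 1 lower, among them Acad9 (log2 fold change 0.64), Nubpl (0.53) and Foxred1 (-0.44). The 4 factors of complex II included 1 fall, in Sdhaf1 (-0.54), and those of complex III 2 rises, in Uqcc2 (0.96) and Uqcc3 (0.40), and 1 fall, in Ttc19 (-0.49). Among 20 factors of complex IV 5 were higher and 15 not called. They included Higd1a, known as a gene induced at low oxygen, which rose by 1.63 from 634.7 ± 58.3 to 1971 ± 105 normalized counts (SD, n = 4 each), and Cox17, a copper chaperone (0.66). For complex V, Tmem70 and the inhibitor Atpif1 rose by 0.24 and 0.39 and the assembly factor Atpaf1 was lower by -0.41. The calls of Sdhaf1, Tmem70 and Atpaf1 were lost without any of 4, 5 and 4 libraries.

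Carriers and the tricarboxylic acid cycle, which feeds the chain, held more rises than falls. The share higher was 44.4% for the 9 further subunits and carriers and 44.4% for the 18 cycle genes. Over all genes tested, 28.8% were higher and 28.4% lower. Of 9 further subunits and carriers, 4 were higher and 5 not called, including Cycs, the electron carrier cytochrome c (0.46), the ADP/ATP carrier Slc25a5 (0.48) and the outer membrane channel Vdac1 (0.58). Of 18 cycle and pyruvate dehydrogenase genes, 8 were higher and 2 lower. Idh3a, the catalytic subunit of isocitrate dehydrogenase, went from 1203 ± 33.5 to 2510 ± 461 normalized counts (SD, n = 4 each), a log2 fold change of 1.06 (edgeR adjusted p = 9.7e-06), and Dlat rose by 0.47. The falls were in Dlst (-0.61) and in Cs, citrate synthase (-0.22, turning to 0.15 under total count scaling and losing its call without any of 6 libraries). Of 77 mitochondrial ribosomal proteins, 27 were higher (35.1%, near the 28.8% of all genes) and 4 lower, with a median log2 fold change of 0.13. Mrpl41 (1.01) and Mrpl32 (0.57) rose most, and Mrps33 (-0.29) and Mrpl49 (-0.28) fell most. Both falls turned under total count scaling (0.074 and 0.099), and Mrps33 lost its call without any of 6 libraries. These lists were not counted again with single libraries left out.

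Of 20 regulators of mitochondrial gene expression, 2 were higher and 4 lower, both smaller shares than the 28.8% and 28.4% of all genes, and the median log2 fold change was -0.12. The coactivators Pprc1 and Ppargc1b were lower by -0.86 and -1.09 (edgeR adjusted p = 5.6e-05 and 1.3e-04), without overlap of the ages. Ppargc1a, the best known coactivator of mitochondrial biogenesis, was at 888, 765, 768 and 701 normalized counts at P5 and 349, 308, 482 and 889.5 at P12. P12 replicate 4 alone reached the P5 level, and the log2 fold change of -0.63 (edgeR adjusted p = 0.068) became -1.05 (adjusted p = 2.5e-05) without it. Nrf1, Gabpa and Tfam, which act on nuclear respiratory genes and on the mitochondrial genome, had log2 fold changes of -0.01, -0.02 and -0.08 and were not called. Esrra and Tfb2m rose by 0.23 and 0.38 (edgeR adjusted p = 0.033 and 0.0016), and Esrra lost its call without any of 4 libraries. Under total count scaling Nrf1, Gabpa and Tfam turned to 0.37, 0.35 and 0.29, since that scaling adds the shift of all genes given above.

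**Figure D5:**
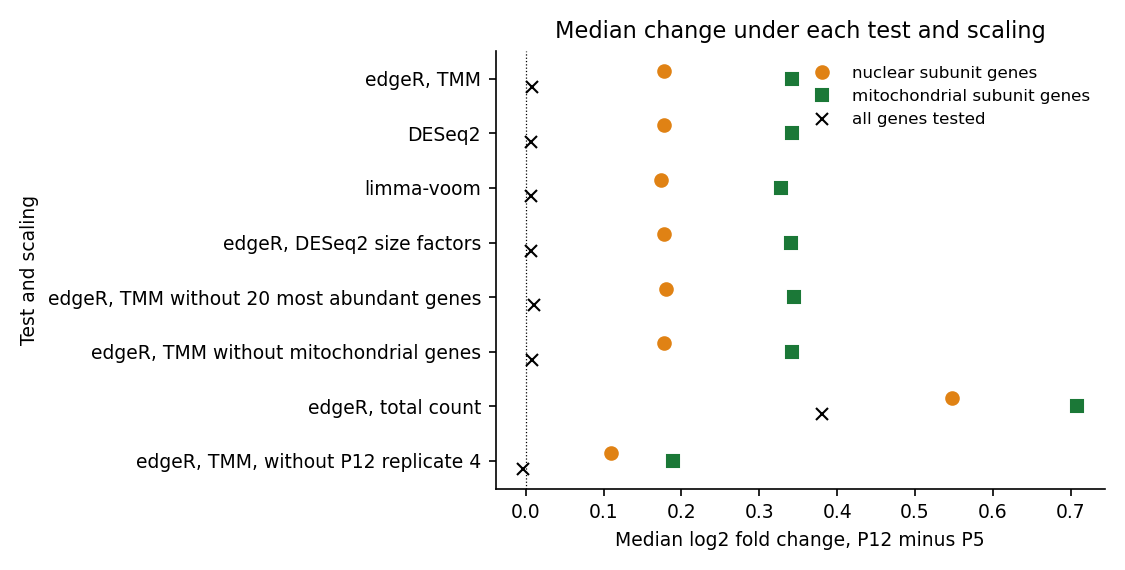
Median log2 fold change (P12 minus P5) of the nuclear subunit genes (orange), the mitochondrial subunit genes (green) and all genes tested (black crosses) under each test and scaling and without P12 replicate 4. Total count moves all 3 medians up together, to 0.55, 0.71 and 0.38, and leaving out P12 replicate 4 lowers the subunit medians to 0.11 and 0.19.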

How the data were processed

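Enamel organs of 8 pools of pups, 4 at P5 and 4 at P12, were profiled by RNA-seq. The authors deposited whole-number read counts per gene without normalization, with names, coordinates and lengths. Every per-library column of the table was used. The aligner, the counting program and its use of strand are not given in the sources used here. The submitters' processing notes list CASAVA and mm39, while 53585 of the 54532 identifiers have the coordinates of GENCODE M21 for GRCm38, as do 92 of the 98 subunit genes, so that GRCm38 is used. The labels describe TRIzol and a Zymo kit, and the study's methods the Zymo kit.

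Counts were filtered (filterByExpr), scaled by TMM and tested without covariates by the quasi-likelihood functions glmQLFit and glmQLFTest of edgeR 4.0.16 (R 4.3.3). The p-values of the 16440 genes were adjusted after Benjamini and Hochberg, with a threshold of 0.05. Alternatives were DESeq2 1.42.0, which the study's methods name, limma-voom (limma 3.58.1), other scalings, filters and thresholds, each library left out, and the replicate number as a block. Isoform ratios used counts plus a pseudocount of 1 and exact permutation tests (scipy 1.17.1). Shared sequence was the share of a gene's 50-base stretches, over all its GENCODE M21 transcripts, found in transcripts of another gene. Code was tested on simulated data, and plots used matplotlib 3.10.9.

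The subunit genes, the gene lists and the tests were chosen with earlier results of these data known. Named genes are all mitochondrial subunits, all Sdh genes, all isoform pairs, the 3 largest called rises and falls of complexes I, III, IV and V, every gene that did not pass the filter, the 2 largest rises and falls of each further list, and Ppargc1a, Tfam, Nrf1, Gabpa, Esrra and Cycs. Genes outside this rule were added after their values were seen. Promoters were not used here for 16 symbols. The p-values measure the spread between pools, and floors cover counting error only. No pair of libraries was a duplicate.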

Additional observations from a re-analysis of the deposited data

Results flagged for a closer look

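In 9 of 158 combinations of a gene and an age, 1 library lay far from the other 3 by Dixon's test at the 95% level, where chance alone flags about 1 in 20 (7.9 here). Subunit genes account for 5 of these. Mt-Nd5 was at 38556 normalized counts in P5 replicate 5 (42835 to 43056 in the others), Ndufb2 at 195 in P12 replicate 3 (148 to 151), Sdhb at 1619 in P12 replicate 4 (1223 to 1264), Uqcr10 at 1432 in P5 replicate 1 (1159 to 1204) and Uqcrb at 1256 in P5 replicate 1 (1035 to 1045). In the further lists, Ttc19 was at 622 in P12 replicate 4 (457 to 483), Idh3a at 1153 in P5 replicate 5 (1214 to 1223), Ppargc1b at 264 in P5 replicate 5 (174 to 184) and Mrpl32 at 193 in P5 replicate 5 (241 to 248). P5 replicate 5 accounts for 4 of the 9.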

How the results depend on the processing

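Of the 45 subunit genes called, 21 kept their call in each of the 18 alternative fits that tested them. In every fit that left out 1 library, 25 kept their call. Among the 21, Cox6a2 and Cox7a1 were tested in only 17 alternative fits. The remaining fit used a stricter filter on low counts, which neither gene passed. Scaling by total count gave 74 nuclear genes higher and 2 lower, 10 mitochondrial genes higher, and by nuclear complex 32 higher and 1 lower (I), 3 and 0 (II), 8 higher (III), 15 higher and 1 lower (IV) and 16 higher (V). It turned the log2 fold changes of Ndufa11 (0.36), Ndufb2 (0.027), Ndufs3 (0.27), Ndufs7 (0.29), Ndufv2 (0.31), Sdha (0.31), Sdhb (0.039), Atp5j2 (0.26) and Atp5o (0.25), and of Cs (0.15), Nrf1 (0.37), Gabpa (0.35), Tfam (0.29), Mrpl49 (0.099) and Mrps33 (0.074), by adding the shift of all genes. Without the filter on low counts 7 mitochondrial and 4 complex V genes were higher. An adjusted p under 0.01 left 16 nuclear rises, 1 mitochondrial, 4 in complex I, 8 in IV and 1 in V. A log2 fold change of at least 0.5 left 7 nuclear rises and 3 falls, 1 mitochondrial rise, 1 rise and 1 fall in complex I, 0 and 0 in II, 0 rises in III, 5 in IV and 1 in V. With any 1 library left out there were 19 to 44 nuclear rises, 2 to 9 mitochondrial, 6 to 18 in complex I, 2 to 5 in III, 9 to 14 in IV and 1 to 6 in V, with 1 to 2 falls in II and 0 to 2 in V. The log2 fold change of mt-Co3 then ranged from -0.22 to 0.43, the latter, which is turned, without P5 replicate 3. Mitochondrial rises were 2 without P12 replicate 3 (15.4%, all genes 26.1%) and 9 without P12 replicate 1 (69.2%, all genes 26.7%).

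The replicate numbers 1, 3 and 4, shared by both ages, did not pair the pools (correlations of deviations 0.045, 0.0051 and -0.036, and no pool correlated best with its own number). With the replicate block over these 6 libraries, 23 nuclear genes were higher, 9 in complex I, 1 in V, and 0 lower in II. The same 6 libraries without the block gave 23 nuclear rises, 2 mitochondrial, 8 in complex I and 1 in V.

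With 3 libraries against 4 the smallest exact permutation p is 0.0571, so no isoform pair could pass. The log2 ratios then ranged from 3.45 to 3.56 for Cox6b2 to Cox6b1, 2.70 to 3.11 for Cox6a2 to Cox6a1, and 1.30 to 1.66 for Cox7a1 to Cox7a2, and the log2 ratio of Ndufa4l2 to Ndufa4, P12 minus P5, from 2.25 to 2.68. Without the 20 most abundant other genes the shares rose 1.26 and 1.13 times. Other values changed sign without being called in either fit. Total count scaling did so for mt-Nd3 (0.185), leaving out P12 replicate 4 for Ndufs1 (-0.039), Sdhc (-0.037) and Atp5a1 (-0.012), leaving out P12 replicate 2 for Sdha (0.0050), and several settings for mt-Co3, Nrf1 and Gabpa, whose values lay near 0. The comparison of Cox8b to Cox8a was not run, since Cox8b did not pass the filter.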

Other observations

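Some genes beside the subunits were named after their values were seen. Of these, the copies of mitochondrial sequence and the mitochondrial ribosomal RNAs bear on how the mitochondrial RNA was counted. Ndufb1-ps, listed as a long noncoding RNA and therefore outside the subunits here although its name is that of a complex I gene, was at 515.5, 381, 385 and 389.5 normalized counts at P5 and at 675, 669, 767 and 989 at P12. Its P12 libraries all lay above its P5 libraries, with a log2 fold change of 0.89 (edgeR adjusted p = 2.4e-04), larger than that of any named nuclear subunit of complex I.

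Of the mitochondrial copies on chromosome 1, Gm28661 was at 427 to 519 normalized counts at P5 and 514 to 607 at P12, where mt-Co2 was at 323 to 489 and 401 to 644. Others lay far under the gene they copy in part, such as Gm28439, with a mean of 192 at P5 where mt-Nd4 had 23784. The log2 fold changes of Gm28661, Gm28437, Gm10925, Gm29216 and Gm28439 were 0.28, 0.37, 0.50, 0.44 and 0.74, and passed edgeR's test, while Gm10222 (0.63) and Gm28438 (0.26) did not (edgeR adjusted p = 0.067 and 0.35). Of the ribosomal RNAs, mt-Rnr1 was called higher by 1.24 (edgeR adjusted p = 0.0092) and mt-Rnr2 had a log2 fold change of 0.56 and was not called, and P12 replicate 4 was the highest library for both, at 13771 and 22192 normalized counts.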
